A study of Mus musculus with 6 samples.

Results

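Endothelial cells line the vessels of skeletal muscle, and 10 of their genes were followed here among the 49315 genes of the count table. The genes were chosen by symbol. 5 of them encode molecules that capture leukocytes or carry chemokines at the vessel wall and are induced or enriched in inflamed venules, namely Sele, Selp, Icam1, Vcam1 and Ackr1, which are called adhesion genes below. The other 5, Icam2, Pecam1, Cdh5, Vwf and Emcn, are expressed by resting endothelium and are called constitutive genes. The comparison asked whether both sets differed in the same way between muscles that received AAV9-HSA-CAAHR and muscles that received AAV9-HSA-GFP.

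The samples were gastrocnemius muscles of male C57BL6J mice, injected with virus at 5 months of age and harvested 5 months later, with 3 libraries per group (CAAHR replicates 31, 34 and 36, GFP replicates 42, 43 and 46). AAV9-HSA-CAAHR carried an aryl hydrocarbon receptor (AHR) without its ligand-binding domain, which makes the transcription factor constitutively active. AAV9-HSA-GFP carried the green fluorescent protein ZsGreen1. Both transgenes were driven by the human skeletal actin promoter, which is active in myofibres, so neither was directed to the endothelium. Every muscle received a virus and uninjected muscle was not analysed here, so each difference is one between vectors. By quantitative PCR, the paper found selected immune genes no lower with CAAHR than in naive muscle without virus. It reads this as a local immune response to AAV-GFP. Which vector moved the genes followed here was not tested. The labels do not say whether the libraries came from separate animals, and p-values measure only the spread between them.

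Leukocytes leave the blood mostly through postcapillary venules. Selectins on activated endothelium slow them down, immunoglobulin-family molecules such as ICAM-1 and VCAM-1 then bind their integrins and hold them, and junction proteins such as PECAM-1 and VE-cadherin open and close the path through the wall. P-selectin and von Willebrand factor are stored ready-made in endothelial granules, whereas E-selectin, ICAM-1 and VCAM-1 depend largely on new transcription driven by NF-kB after cytokines such as interleukin-1 and tumour necrosis factor.

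The libraries held between 43432994 and 58825752 counts, of which the 10 genes took between 6129 and 10577. Ahr (log2 fold change 2.87 ± 0.31, SE) and its target Cyp1a1 (7.77 ± 0.20) were higher in 3 of 3 CAAHR libraries. Slow-fibre transcripts differed strongly among libraries, and the summed level of 9 slow-fibre genes was 2783, 649 and 2518 CPM in CAAHR replicates 31, 34 and 36 and between 228 and 461 CPM in GFP libraries. CPM are counts relative to library size after TMM scaling, edgeR's trimmed-mean normalisation. CAAHR replicate 34 also had the lowest summed level of the 10 genes, at 128 CPM against 147 to 181 CPM in the other 5 libraries. Level and number of cells cannot be told apart in whole muscle, so a lower value may be fewer cells of a type or less RNA in each.

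The start regions of Sele, Selp and Icam1, which had lower levels in CAAHR muscles, are printed because E-selectin and ICAM-1 are textbook targets of NF-kB. Each line is the 250 bases before the RefSeq start on GRCm38.p6, read 5′ to 3′ on the plus strand, at chr1:164047984-164048233 for Sele, chr1:164115014-164115263 for Selp and chr9:21015690-21015939 for Icam1. Capitals mark matches on either strand to GGNNNTTCC, a loose NF-kB-like pattern picked after the sequences had been read.
Sele: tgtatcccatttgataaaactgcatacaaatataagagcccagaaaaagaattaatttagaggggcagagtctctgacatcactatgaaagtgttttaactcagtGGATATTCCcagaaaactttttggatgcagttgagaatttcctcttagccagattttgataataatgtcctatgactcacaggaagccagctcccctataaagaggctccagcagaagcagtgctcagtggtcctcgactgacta
Selp: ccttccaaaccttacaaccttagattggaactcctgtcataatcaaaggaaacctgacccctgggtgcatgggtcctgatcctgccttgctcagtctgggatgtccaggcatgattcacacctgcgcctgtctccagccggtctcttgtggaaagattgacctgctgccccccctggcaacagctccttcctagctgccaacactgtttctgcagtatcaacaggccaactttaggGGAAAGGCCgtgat
Icam1: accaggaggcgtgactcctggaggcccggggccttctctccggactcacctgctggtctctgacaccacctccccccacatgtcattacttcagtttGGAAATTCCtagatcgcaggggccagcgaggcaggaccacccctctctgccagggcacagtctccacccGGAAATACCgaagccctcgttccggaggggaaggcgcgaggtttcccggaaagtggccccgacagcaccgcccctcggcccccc
The pattern occurred in 15.7% of 32841 RefSeq start windows of this length and in 4 of the 5 windows found for the 10 genes (Sele, Selp, Icam1 and Ackr1, not Emcn). The stricter kappaB consensus occurred in none of these 5 and in 7.25% of all windows. The core sequence bound by AHR with its partner ARNT, GCGTG on either strand, was found in the Icam1 window, starting 242 bases before the gene, and in the Emcn window, against 28.2% of all windows. A TATAAA sequence lay 49 bases before the start in Sele alone of the 5 (12.4% of all windows). AGGAAG, the kind of site bound by ETS factors such as ERG, was in 4 of the 5, all but Icam1 (29.5% of all windows). In the Ackr1 window, an AGGAAG match overlapped the loose NF-kB-like one. A match says only that the letters are present.

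Most of the adhesion genes were lower in AAV9-HSA-CAAHR muscles, and no constitutive gene was called. Of the 5 adhesion genes, 4 were lower with an adjusted p under 0.05 (Sele, Selp, Icam1 and Vcam1), against 4.57% of 15847 tested genes called lower and 3.04% called higher. Sele could be tested only because it was present in the GFP libraries, and of the 4 adhesion genes that passed the filter on low counts in both groups 3 were called, against 4.17% of 14130 such genes called lower. The 4 called genes were also more than 2-fold lower, as were 2.51% of tested genes among those called. For 5 of 5 the CAAHR libraries lay wholly below the GFP libraries, against 14.9% of tested genes, and 29.9% had no overlap in either direction. The edgeR quasi-likelihood test called 0 of the 5 constitutive genes. Vwf was the 1 gene of the 5 below 0.05 before adjustment, as were 23.9% of all tested genes (12.6% with a lower level in CAAHR muscles), and DESeq2 and limma-voom also called 0. The share of all genes called in either direction was 7.6%. The median log2 fold change was -1.16 for the adhesion genes and -0.12 for the constitutive genes, beside 0.01 over all tested genes. These 10 genes were picked with earlier results of these libraries known, so the counts describe these libraries and are not independent evidence.

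**Figure D1:**
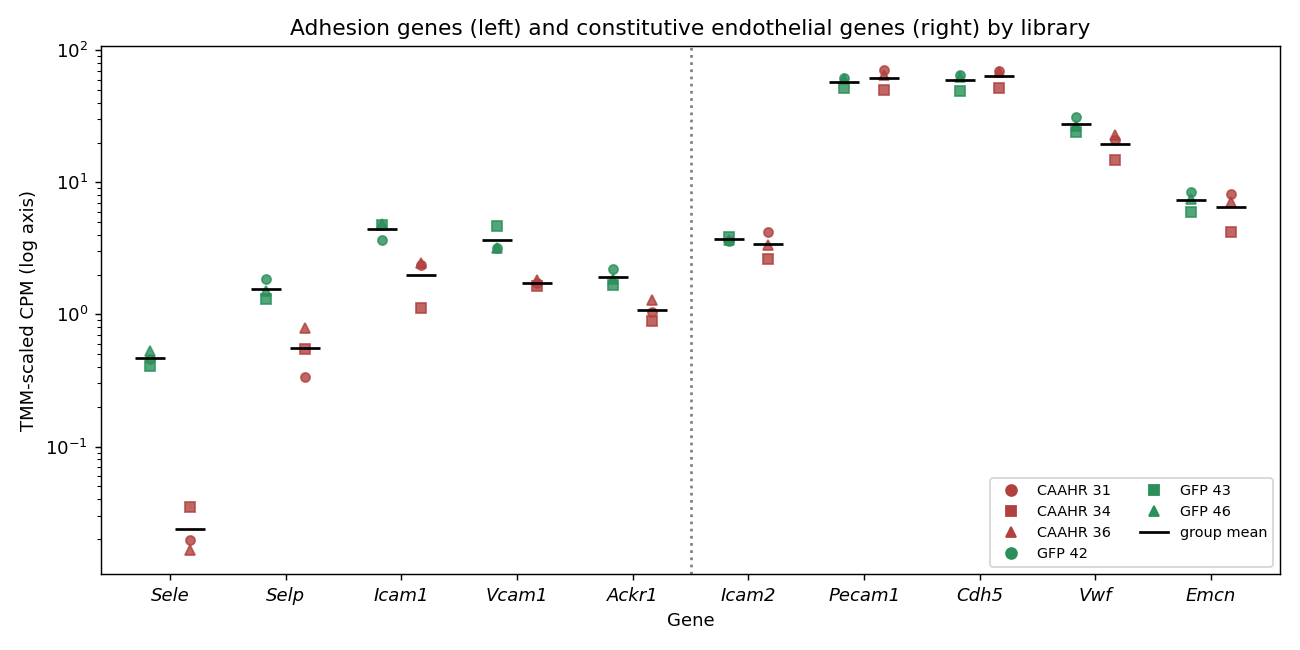
TMM-scaled CPM on a log axis for each of the 10 genes in each library, with GFP libraries in green, CAAHR libraries in red, a marker shape for each replicate and a black line at each group mean. For the 5 adhesion genes on the left every CAAHR library lies below every GFP library, and of the 5 constitutive genes on the right only Vwf shows such a gap.

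Sele (ENSMUSG00000026582, chromosome 1, 164048234 to 164057677) encodes E-selectin, which only activated endothelium displays. It had 1, 2 and 1 counts in CAAHR replicates 31, 34 and 36 and 22, 17 and 28 counts in GFP replicates 42, 43 and 46. That is nearly nothing in one group and a low but steady level in the other. The summed counts, 4 against 67, put the level 19.8-fold higher in GFP muscles after scaling, with a 95% exact interval of 7.38 to 74.7 that covers counting error only. The edgeR quasi-likelihood test gave an adjusted p of 0.00179. Sele passed the filter on low counts through the GFP libraries alone, so it could be tested only because it was present there.

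Selp (ENSMUSG00000026580, chromosome 1, 164115264 to 164150026) belongs to the same selectin cluster as Sele and encodes P-selectin, which endothelium and platelets store. It was at 0.336, 0.543 and 0.787 CPM in CAAHR replicates 31, 34 and 36, and at 1.84, 1.298 and 1.49 CPM in GFP replicates 42, 43 and 46. The highest CAAHR library was below the lowest GFP library. The log2 fold change was -1.46 ± 0.33 (edgeR quasi-likelihood test, adjusted p 0.0276). Without CAAHR replicate 31, GFP replicate 42 or GFP replicate 46 the call was lost, with adjusted p-values of 0.0707, 0.0880 and 0.0829 by the same test. Platelets carry Selp as well, so their markers were read beside it. The summed level of 8 such genes was between 5.53 and 8.66 CPM in CAAHR libraries and between 5.80 and 7.61 CPM in GFP libraries, and the edgeR test called 0 of the 4 that could be tested. Ppbp was the 1 gene below 0.05 before adjustment, with the higher level in CAAHR libraries. Among all tested genes, 7.6% were called and 23.9% were below 0.05 before adjustment.

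Icam1 (ENSMUSG00000037405, chromosome 9, 21015985 to 21028817) encodes the ligand of the leukocyte integrins LFA-1 and Mac-1 and is also made by leukocytes and fibroblasts. Its level was 2.35, 1.12 and 2.46 CPM in CAAHR replicates 31, 34 and 36, against 3.69, 4.78 and 4.80 CPM in GFP replicates 42, 43 and 46. CAAHR replicate 34 was the lowest library and the groups did not overlap. The log2 fold change was -1.16 ± 0.28 (edgeR quasi-likelihood test, adjusted p 0.0395). This call was close to the threshold, and it was lost in 5 of the 6 fits that each left out 1 library, all but the fit without CAAHR replicate 34, with adjusted p-values from 0.0164 to 0.128 over the 6.

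Vcam1 (ENSMUSG00000027962, chromosome 3, 116109949 to 116129688) encodes the ligand of the integrin VLA-4. Its level was 1.72, 1.65 and 1.82 CPM in CAAHR replicates 31, 34 and 36, and 3.19, 4.66 and 3.17 CPM in GFP replicates 42, 43 and 46. The CAAHR libraries were nearly equal, while GFP replicate 43 stood above the other two. The log2 fold change was -1.08 ± 0.20 (edgeR quasi-likelihood test, adjusted p 0.0132), and the call was kept in 6 of the 6 fits with 1 library left out. Satellite cells and fibroblasts also express Vcam1. The summed level of 6 satellite cell and myogenic genes was 35.5 to 42.1 CPM in CAAHR and 29.1 to 39.0 CPM in GFP libraries, and that of 8 fibroblast genes 322 to 567 and 457 to 558 CPM. No gene of either list was called by edgeR. Before adjustment, 1 satellite cell gene (Myog) was below 0.05 with a higher level and 1 fibroblast gene (Dpt) with a lower one. The shares over all tested genes were 7.6% called and 23.9% below 0.05 before adjustment.

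Ackr1 (ENSMUSG00000037872, chromosome 1, 173331886 to 173333750) encodes the atypical receptor that carries chemokines across venular endothelium and is also made by erythroid cells. It was at 1.05, 0.893 and 1.28 CPM in CAAHR replicates 31, 34 and 36, against 2.20, 1.66 and 1.87 CPM in GFP replicates 42, 43 and 46. The groups did not overlap, but the log2 fold change, at -0.83 ± 0.23, missed the threshold (adjusted p 0.0600, edgeR quasi-likelihood test). It passed in 3 of 16 alternatives, including DESeq2 (adjusted p 0.0294), and the adjusted p ranged from 0.0294 to 0.263 over the 16. Summed erythroid transcripts overlapped between groups, at 100.5 to 227 CPM in CAAHR and 100.9 to 186 CPM in GFP libraries.

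Among the constitutive genes, Pecam1 (ENSMUSG00000020717, chromosome 11, 106654217 to 106750628), a junction molecule that leukocytes and platelets share, was at 70.9, 50.2 and 65.1 CPM in CAAHR replicates 31, 34 and 36 and at 61.4, 51.6 and 60.9 CPM in GFP replicates 42, 43 and 46. Cdh5 (ENSMUSG00000031871, chromosome 8, 104101625 to 104144511), which encodes VE-cadherin of the endothelial junction, was at 69.5, 52.1 and 68.7 CPM against 64.7, 49.3 and 63.2 CPM in the same order. In both genes CAAHR replicate 34 was low, the other CAAHR libraries were above every GFP library, and the groups overlapped. The 95% interval of the CAAHR over GFP fold was 0.868 to 1.32 for Pecam1 and 0.860 to 1.34 for Cdh5.

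Icam2 (ENSMUSG00000001029, chromosome 11, 106377656 to 106388075), the integrin ligand of resting endothelium, was at 4.23, 2.63 and 3.36 CPM in CAAHR replicates 31, 34 and 36 and at 3.56, 3.87 and 3.68 CPM in GFP replicates 42, 43 and 46. The GFP libraries fell inside the range of the CAAHR libraries, and the 95% interval of the fold was 0.682 to 1.24. Icam1 and Icam2 bind the same integrin LFA-1, and the interval of the Icam1 fold, 0.288 to 0.695, overlapped that of Icam2 by a narrow margin. Emcn (ENSMUSG00000054690, chromosome 3, 137341067 to 137432185) encodes endomucin, a sialomucin of capillaries and veins. It was at 8.19, 4.18 and 7.10 CPM against 8.50, 5.96 and 7.53 CPM in the same order, with an interval of the fold from 0.601 to 1.299, and the groups overlapped.

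Vwf (ENSMUSG00000001930, chromosome 6, 125546774 to 125686679), the gene for von Willebrand factor, which binds platelets and is most abundant in veins, lay between the sets. Its level was 21.0, 14.7 and 22.9 CPM in CAAHR replicates 31, 34 and 36 and 31.5, 23.9 and 26.9 CPM in GFP replicates 42, 43 and 46. The groups did not overlap, yet the log2 fold change, at -0.49 ± 0.17, missed the threshold (adjusted p 0.122, edgeR quasi-likelihood test). It passed in 1 of 16 alternatives, the fit without a filter on low counts (adjusted p 0.00149), and the adjusted p ranged up to 0.303.

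Levels between genes were compared per kilobase of exon. In GFP muscles Cdh5 was highest, at 14.1 ± 2.03 CPM per kb (SD, n = 3), followed by Pecam1 (9.30 ± 0.890), Icam2 (1.95 ± 0.0809), Vwf (1.71 ± 0.239), Ackr1 (1.36 ± 0.193), Emcn (1.36 ± 0.237), Icam1 (1.01 ± 0.146), Vcam1 (0.414 ± 0.0964), Selp (0.350 ± 0.0628) and Sele (0.160 ± 0.0208). Neighbours from Icam2 down to Emcn overlapped in their libraries, and so did Vcam1 and Selp. In CAAHR muscles the order was the same except that Emcn (1.20 ± 0.383) stood before Ackr1 (0.764 ± 0.139), and those overlapped too. Sele was again last, at 0.00815 ± 0.00340 CPM per kb. In GFP muscles the libraries of Ackr1 overlapped those of its neighbours Vwf and Emcn on this scale, and the selectins were the scarcest transcripts in both groups.

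Some reads may not be told apart from those of neighbours. Annotated exons of other genes covered 624 of 4413 exonic bases of Selp, 511 of 4360 of Icam1, 361 of 1405 of Ackr1 (by Cadm3) and 61 of 8870 of Vcam1, and 0 in the other 6 genes.

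The sets were next set against each other within each library, where scaling between libraries plays no part. The summed adhesion genes amounted to 3.15%, 3.42% and 3.81% of the summed constitutive genes in CAAHR replicates 31, 34 and 36, against 6.71%, 9.53% and 7.31% in GFP replicates 42, 43 and 46. The groups did not overlap, and the mean log2 ratio was -4.86 ± 0.14 (SD, n = 3) against -3.69 ± 0.26, a difference of -1.17. With 1 library left out the difference ranged from -1.27 to -1.02, and without Vcam1 it was -1.22. No p is given, because the sets were formed with results known.

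Each gene was also expressed per 100 CPM of Pecam1 and Cdh5 together. On this scale Sele was at 0.0202 ± 0.0122 (SD, n = 3) in CAAHR and 0.398 ± 0.0327 in GFP muscles. Selp was at 0.453 ± 0.187 against 1.32 ± 0.134, Icam1 at 1.54 ± 0.391 against 3.85 ± 0.909, Vcam1 at 1.40 ± 0.194 against 3.24 ± 1.20 and Ackr1 at 0.858 ± 0.106 against 1.63 ± 0.119. Vwf, at 15.5 ± 1.42 against 23.4 ± 1.69, and Emcn, at 5.08 ± 0.895 against 6.24 ± 0.440, also had no overlap between groups, whereas Icam2 (2.70 ± 0.276 against 3.21 ± 0.548) overlapped. In plain CPM the groups overlapped for Emcn, and 29.9% of all tested genes had no overlap. The share of all genes without overlap on the Pecam1 and Cdh5 scale was not counted.

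**Figure D2:**
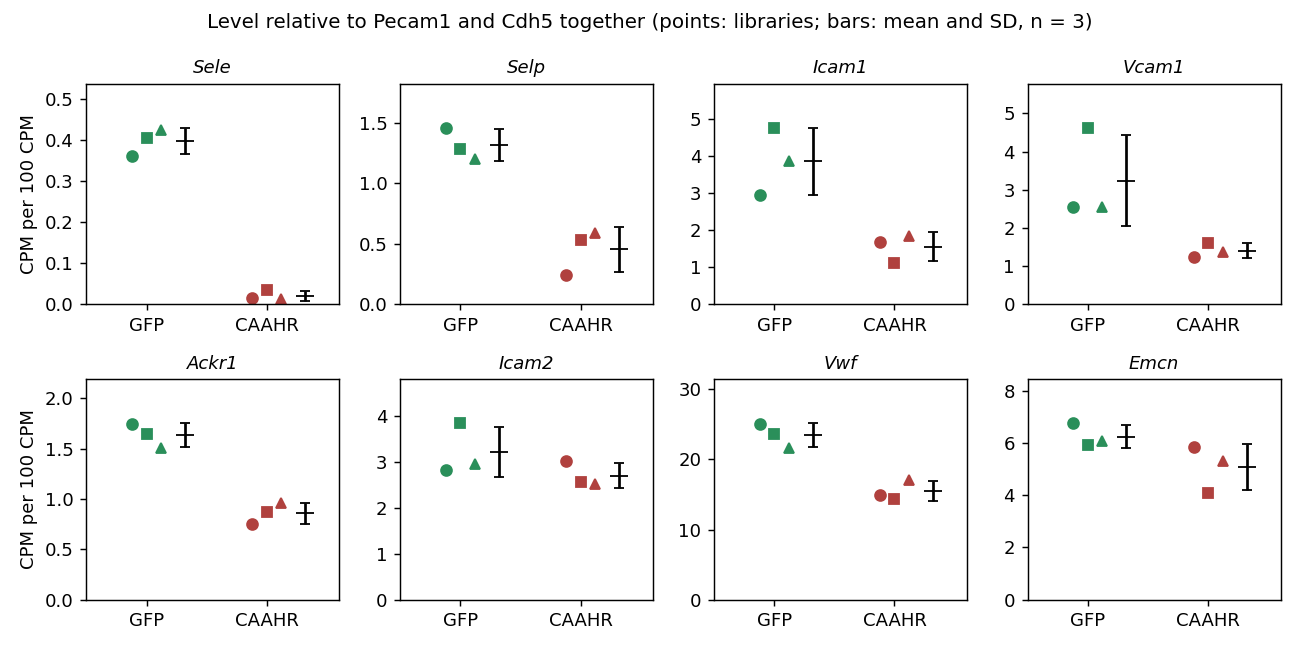
Level of 8 genes per 100 CPM of Pecam1 and Cdh5 together, on linear axes that start at 0, with a point for each library and bars for the mean and SD (n = 3). The CAAHR libraries lie below the GFP libraries for each gene except Icam2, with the widest gap for Sele (0.0202 against 0.398). The share of all genes with such a gap on this scale was not counted, and in plain CPM Emcn overlapped between groups.

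The same question was put to the whole table by scaling the libraries to 20 other endothelial genes, such as the receptors Kdr, Flt1 and Tek and the transcription factor Erg, in place of TMM. Under this scaling the same 4 adhesion genes were called, with log2 fold changes of -4.15 ± 0.69 for Sele, -1.45 ± 0.34 for Selp, -1.19 ± 0.24 for Icam1 and -1.08 ± 0.25 for Vcam1. Ackr1 (-0.83 ± 0.29, adjusted p 0.0707 by the edgeR quasi-likelihood test) and Vwf (-0.50 ± 0.18, adjusted p 0.0929 by the same test) again missed the threshold. For Pecam1 and Cdh5 the values were 0.10 ± 0.18 and 0.10 ± 0.19.

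**Figure D3:**
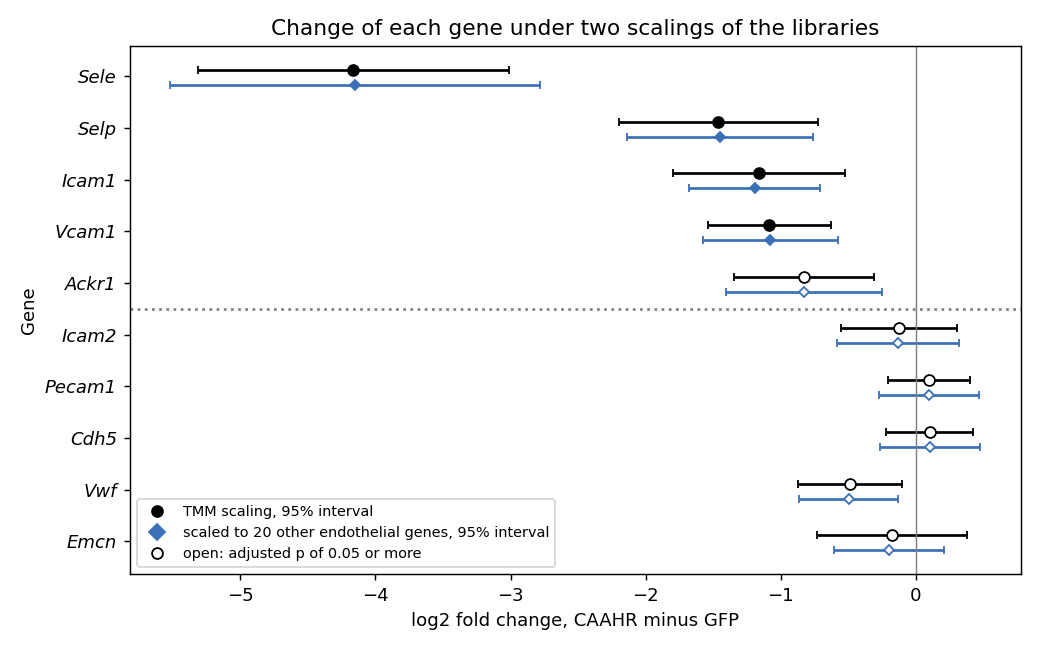
Log2 fold change of each gene, CAAHR minus GFP, with 95% intervals, under TMM scaling (black circles) and with libraries scaled to 20 other endothelial genes (blue diamonds), where open symbols had an adjusted p of 0.05 or more. The intervals of the 5 adhesion genes lie below 0 under both scalings, and those of Pecam1, Cdh5, Icam2 and Emcn span 0.

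The wider endothelial programme gave few calls. The edgeR test called 0 of the 20 other endothelial genes and found 0 below 0.05 before adjustment. Their log2 fold changes ran from -0.26 (Cldn5) to 0.47 (Eng), and all 20 overlapped between groups. Their summed level was 519, 343 and 487 CPM in CAAHR replicates 31, 34 and 36 and between 402 and 436 CPM in GFP libraries. Among 8 capillary genes, led in abundance by the water channel Aqp1 and by Rgcc, the same test called 0 and found 0 below 0.05 before adjustment, and the median log2 fold change was 0.16. Mural cells, which wrap the vessels, gave 0 calls in 8 genes, again with 0 below 0.05 before adjustment. The most abundant of them were Rgs5 (log2 fold change 0.15 ± 0.16) and Abcc9 (0.11 ± 0.12). Over all tested genes 7.6% were called, 23.9% were below 0.05 before adjustment and 29.9% did not overlap between groups. At a share of 7.6%, 0 calls in lists this small say little.

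Venous, arterial and lymphatic genes gave a single call. Of 6 venous genes 1 was called, Lrg1, a secreted glycoprotein induced in inflamed vessels. Lrg1 was at 5.34 ± 1.64 CPM in CAAHR and 10.1 ± 1.26 CPM in GFP muscles (log2 fold change -0.91 ± 0.23, edgeR quasi-likelihood test, adjusted p 0.0444). Nr2f2, the transcription factor that specifies veins, was at 21.4 ± 4.87 CPM in CAAHR and 28.6 ± 1.68 CPM in GFP muscles (log2 fold change -0.42 ± 0.16). Plvap, the diaphragm protein of fenestrated and venular endothelium, was at 9.28 ± 3.25 and 14.8 ± 2.24 CPM (-0.67 ± 0.25). Neither passed the threshold, although for both the groups did not overlap. The venous list as a whole had a median of -0.43, and its 1 call in 6 genes stands beside 7.6% of all tested genes called. Among 8 arterial genes edgeR called 0 and found 2 below 0.05 before adjustment, against 23.9% of all tested genes, with a median of -0.25. Among 6 tested lymphatic genes it called 0 and found 1 below 0.05 before adjustment, with a median of -0.35. CAAHR libraries lay wholly below GFP libraries for 3 of 6 venous, 4 of 8 arterial and 3 of 6 tested lymphatic genes, against 14.9% of all tested genes. The summed arterial level was 43.8 to 47.1 CPM in CAAHR and 49.3 to 53.2 CPM in GFP libraries, and the summed venous level 55.0 to 62.1 and 74.2 to 80.8 CPM.

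Among 12 other molecules of endothelial junctions and transmigration, 10 could be tested and 1 was called, a share near the 7.6% of all tested genes. Mcam, the adhesion molecule CD146 of endothelium and pericytes, was at 18.0 ± 2.35 CPM in CAAHR and 26.1 ± 1.94 CPM in GFP muscles (log2 fold change -0.54 ± 0.12, edgeR quasi-likelihood test, adjusted p 0.0227). The junction molecules Jam2 (0.36 ± 0.12) and Cd99l2 (0.32 ± 0.10) had higher levels in 3 of 3 CAAHR libraries but missed the threshold, at adjusted p-values of 0.109 and 0.0892 by the edgeR test. The lymphoid-tissue addressins Madcam1 and Glycam1 had 0 counts in every library.

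**Figure D4:**
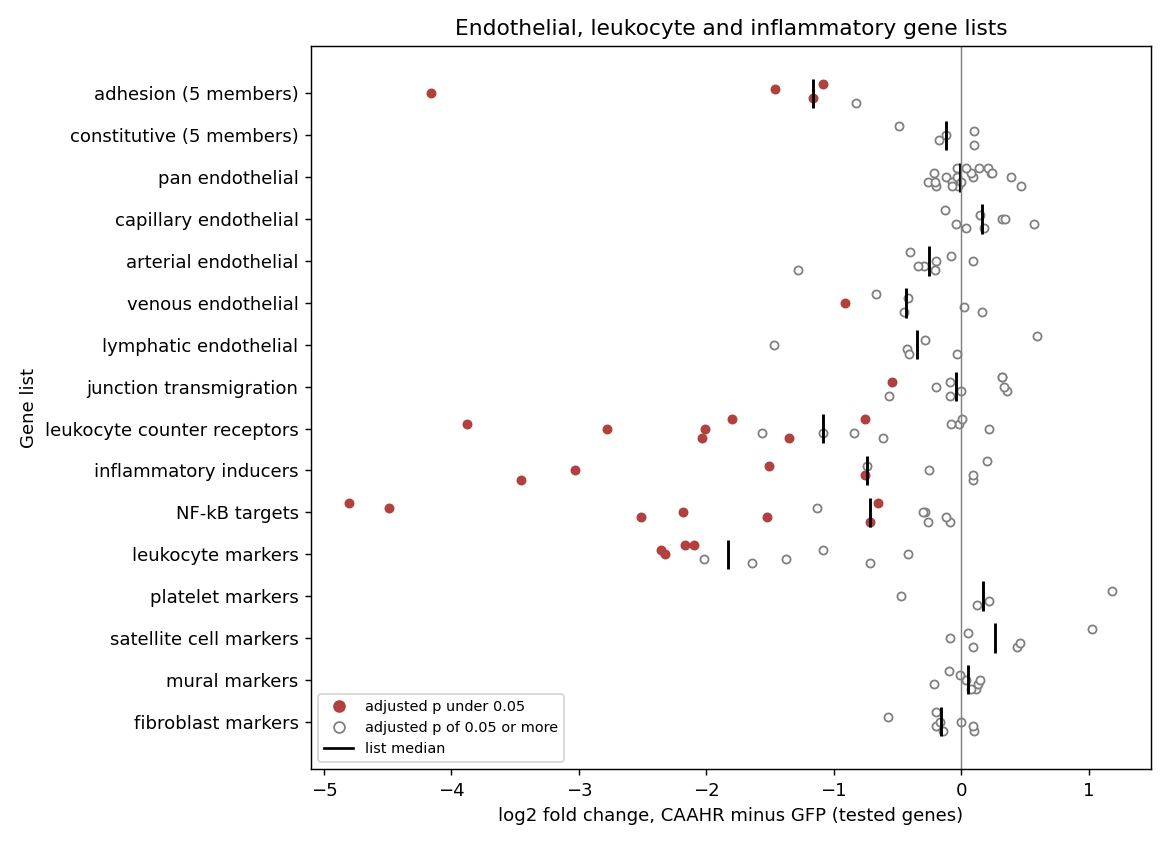
Log2 fold change, CAAHR minus GFP, of every tested gene in 16 lists, filled red where the adjusted p was under 0.05, with a black bar at each list's median. The medians of the adhesion, leukocyte and inflammatory lists run from -0.71 to -1.83, and those of the constitutive, general endothelial, capillary and mural lists from -0.12 to 0.16.

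The leukocyte partners of the adhesion molecules were then read axis by axis. For the selectins, Selplg (PSGL-1, the main selectin ligand of leukocytes) was at 0.435, 0.543 and 0.705 CPM in CAAHR replicates 31, 34 and 36 and at 1.31, 3.49 and 2.06 CPM in GFP replicates 42, 43 and 46, and its log2 fold change was -2.01 ± 0.38 (adjusted p 0.0139, edgeR quasi-likelihood test). St3gal4, a sialyltransferase that helps build selectin ligands, had a log2 fold change of -0.76 ± 0.19 and was called as well. Among the listed genes not called, Glg1 had a higher level in 3 of 3 CAAHR libraries (0.22 ± 0.10). Cd44 (-0.61 ± 0.22) and Gcnt1 (-0.84 ± 0.355) had lower means in CAAHR muscles. For the Icam1 axis, Itgal and Itgb2, the chains of LFA-1, had log2 fold changes of -2.03 ± 0.40 and -1.80 ± 0.37 and were called. Itgam, the alpha chain of Mac-1, was at -1.08 ± 0.31 and missed the threshold.

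For the Vcam1 axis, Itga4 and Itgb1, the chains of VLA-4, which many cell types express, were at 5.79 ± 1.45 and 196 ± 27.3 CPM in CAAHR against 5.86 ± 2.24 and 207 ± 11.2 CPM in GFP muscles, with no call. The leukocyte-restricted chain Itgb7, which can pair with the same alpha chain, was called, with a log2 fold change of -1.35 ± 0.29. Over the 16 counter-receptor genes, 15 were tested and 7 were called lower (also Itgax and Spn) and 0 higher, with a median of -1.08, against 4.57% of all tested genes called lower. Itgax and Spn passed the filter on low counts through the GFP libraries alone, so they could be called only as lower, and of the 11 genes that passed in both groups 5 were called.

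For Ackr1, its chemokine ligands Ccl2 and Cxcl1 were both called lower. Cxcl1 was at 0.0791, 0.385 and 0.410 CPM in CAAHR replicates 31, 34 and 36 and at 3.27, 7.74 and 9.21 CPM in GFP replicates 42, 43 and 46. Ccl2 was at 0.399 ± 0.286 against 2.33 ± 0.583 CPM (log2 fold change -2.52 ± 0.44). For both chemokines the groups did not overlap. Among all tested genes, 4.57% were called lower and 14.9% had CAAHR libraries wholly below GFP libraries. Both chemokines passed the filter on low counts through the GFP libraries alone, so they could be called only as lower.

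Several cytokine signals that induce adhesion molecules were lower. Il1b, which passed the filter on low counts in both groups, was at 0.257, 0.350 and 0.345 CPM in CAAHR replicates 31, 34 and 36. In GFP replicates 42, 43 and 46 it was at 1.10, 2.57 and 4.19 CPM (log2 fold change -3.03 ± 0.48, edgeR quasi-likelihood test, adjusted p 0.00851). Il6 was at 0.0593, 0.123 and 0.131 CPM in CAAHR replicates 31, 34 and 36 and at 0.870, 1.30 and 1.38 CPM in GFP replicates 42, 43 and 46. Il1r1, the receptor through which interleukin-1 acts on endothelium and fibroblasts, was at 5.42, 4.24 and 3.84 CPM against 12.6, 13.4 and 12.2 CPM, and its log2 fold change was -1.51 ± 0.15 (adjusted p 6.4e-04, edgeR quasi-likelihood test), with tight replicates in both groups. Ifngr2 was at 39.0 ± 2.89 CPM in CAAHR and 65.8 ± 3.42 CPM in GFP muscles. Tnfrsf1a, the main receptor of tumour necrosis factor, was at 14.8 CPM in CAAHR and 17.6 CPM in GFP muscles on average and was not called, and Tnf itself was too scarce to test. In all, 4 of 9 tested inducers and receptors were called, each lower, against 4.57% of all tested genes. Il6 passed the filter through the GFP libraries alone, and of the 7 that passed in both groups 3 were called.

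Of 13 tested NF-kB targets and feedback genes 7 were called, each lower, with a median log2 fold change of -0.71. Beside the chemokines Ccl2, Cxcl1 and Cxcl2 these were the feedback inhibitor Tnfaip3 (A20), at 2.41 ± 0.447 against 6.97 ± 2.23 CPM, Birc3 (4.32 ± 0.261 against 7.08 ± 0.778 CPM), Relb (10.2 ± 1.41 against 16.1 ± 0.979 CPM) and Traf1 (0.212 ± 0.0746 against 0.970 ± 0.716 CPM). Traf1 and the 3 chemokines passed the filter through the GFP libraries alone, and of the 9 genes that passed in both groups 3 were called, against 4.17% of all such genes. The inhibitor Nfkbia and the subunits Nfkb1 and Nfkb2 were not called.

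Leukocyte markers, like the adhesion genes, were mostly lower in CAAHR muscles, and their part in the result was not tested. Of 14 listed, 10 could be tested and 4 were called, each lower (Ptprc, Cd79a, S100a8 and S100a9), with a median of -1.83, against 4.57% of all tested genes called lower. Cd79a passed the filter through the GFP libraries alone, and of the 7 that passed in both groups 3 were called. Their summed level was 8.24 to 12.5 CPM in CAAHR and 18.1 to 41.5 CPM in GFP libraries, without overlap. The neutrophil marker Ly6g had 3 counts or fewer in every library, and Nkg7, of cytotoxic lymphocytes, had 0, 1 and 0 counts in CAAHR libraries and 5, 57 and 15 in GFP libraries. Ptprc (CD45), carried by all leukocytes, was at 2.36, 9.18 and 4.19 CPM in GFP replicates 42, 43 and 46, and at 0.949, 1.05 and 1.12 CPM in CAAHR replicates 31, 34 and 36. Of the 4 called markers, Ptprc and Cd79a were highest in GFP replicate 43, and S100a8 and S100a9 in GFP replicate 46. Among the adhesion genes, Vcam1 was highest in GFP replicate 43, Sele in GFP replicate 46, and Selp and Ackr1 in GFP replicate 42. Within the GFP group Sele, Selp and Ackr1 were lowest in replicate 43, where Ptprc was highest. Icam1 was nearly equal in GFP replicates 43 and 46, at 4.78 and 4.80 CPM. Without GFP replicate 43 the adhesion genes called were 3, Sele, Selp and Vcam1.

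The slow-fibre difference also moved with the groups. With slow-fibre content as a covariate, which itself differed between the groups, 1 adhesion gene was called, Icam1 (log2 fold change -2.46), and Sele, Selp and Vcam1 had values of -3.92 ± 1.10, -1.34 ± 0.67 and -1.17 ± 0.41. Their adjusted p-values by the edgeR quasi-likelihood test were then 0.0935, 0.329 and 0.174. The constitutive genes had lower values in this fit too, with none called. Emcn went from -0.18 to -1.04 ± 0.38, Vwf from -0.49 to -0.996 ± 0.29 and Icam2 from -0.12 to -0.70 ± 0.32, while Pecam1 and Cdh5 turned to -0.36 ± 0.20 and -0.31 ± 0.23. Ackr1 was at -1.11 ± 0.48. Under this covariate the values of Emcn and Vwf were thus near those of Vcam1 and Ackr1. The part of fibre type in these results was not tested.

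The genes most like 2 members in pattern were sought among 12241 tested genes over the 6 libraries, by the root mean square difference of log2 CPM after centring each gene. Those nearest to Icam1 were C2, Ppp1r1a, Spi1, Tmem176a and Lrg1, at differences of 0.140 to 0.198 on the log2 scale. Those nearest to Pecam1 were Ssh2, Mfsd10, Hdac7, Tgfb3 and Sri, at 0.0275 to 0.0426. With 6 libraries such nearness is a description only.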

How the data were processed

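Polyadenylated RNA from 6 gastrocnemius muscles was sequenced as paired ends. The authors trimmed reads with Trimmomatic 0.36, aligned them to GRCm38 with STAR 2.5.2b and counted uniquely mapped reads in exons by gene with featureCounts. The deposited values are raw counts per Ensembl gene, not normalised and not pooled. Whether the libraries were stranded is not given in the sources used here. All sample columns were used, each matched to its sample by title. Positions and exon lengths came from GENCODE M21 (GRCm38), which held 99.5% of the identifiers. A further 174 rows, with 0.0154% of counts, had no gene symbol and were kept.

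The deposited counts went into edgeR 4.0.16 under R 4.3.3, with filterByExpr (15847 genes), TMM scaling and the robust quasi-likelihood F test of CAAHR against GFP, with Benjamini-Hochberg adjustment over all tested genes and a threshold of 0.05. Standard errors were derived from the F statistic. No library pair within a group agreed within sampling noise, since the lowest chi-square divided by its degrees of freedom was 21.6. Alternatives were other scalings, filters, DESeq2 1.42.0, limma 3.58.1 voom with sample weights, a slow-fibre covariate and leaving out each library. The members, gene lists and tests were chosen with earlier results of these data known. All 10 members are named with values. Of other lists, called genes and otherwise the 2 most abundant were eligible, and further genes named as partners were picked after their values were seen. The calculation was tested on simulated counts. Promoter windows were RefSeq's, found for 5 of the 10 genes.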

Additional observations from a re-analysis of the deposited data

How the results depend on the processing

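No paired analysis was possible because no number recurs among the CAAHR and GFP replicates. Over 159 checks of the 10 genes under 16 alternatives, 137 gave the main direction and call, 12 lost a call, 4 gained one and 6 changed sign. The number of all genes called, 1205, was 2470 without a filter on low counts, 1919 with DESeq2, 436 with the slow-fibre covariate, and from 530 to 1727 with 1 library left out. The split into 481 genes higher and 724 lower became 358 and 990 with upper quartile scaling and 876 and 600 with unscaled library sizes. The adhesion genes called, 4 of 5, were 1 with the slow-fibre covariate and from 2 to 4 with 1 library left out, with 2 left without CAAHR replicate 31, GFP replicate 42 or GFP replicate 46. The constitutive genes called, 0, became 1 (Vwf) without a filter on low counts and stayed at 0 with each library left out. Sele could not be tested with at least 10 counts required in every library, and Icam1 lost its call with library size only (adjusted p 0.0545 by edgeR). The difference in log2 ratio between the sets, -1.17, was -0.85 with Icam2 counted as an adhesion gene, -1.38 from means of log2 CPM, and from -1.27 to -1.02 with 1 library left out.

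Reversals concerned only constitutive genes, none of them called under any alternative that reversed it. With the slow-fibre covariate Pecam1 was at -0.36 and Cdh5 at -0.31, and without a change of sign Emcn was at -1.04, Vwf at -0.996 and Icam2 at -0.70. With 1 library left out the log2 fold change ranged from -0.0133 to 0.22 for Pecam1, from -0.0118 to 0.22 for Cdh5, from -0.31 to 0.0255 for Icam2 and from -0.38 to 0.0491 for Emcn. The cause of these differences was not tested. Counts of 1 or 2 per library limit Sele in CAAHR muscles, and 3 libraries per group limit the rest.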
